A study of Mus musculus with 12 samples.

Results

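The imprinted genes that act on growth were followed in mouse liver tumors and in the non-tumoral liver of the same animals: H19, Igf2, Dlk1, Meg3, Rian, Mirg, Peg3, Plagl1, Cdkn1c and Igf2r. They were taken by symbol, with earlier results of these data known, from the 24421 gene symbols of the read count files, and all 10 were present. Bulk poly(A) RNA-seq had been run on 6 tumors and 6 livers, 1 of each from 6 mice older than 18 months on a C57BL/6J N background and a standard diet. The mice of T-HCC662 and T-HCC663 and those of T-HCC941 and T-HCA992 (tumors named here by genotype, diagnosis and animal number) were p21+/Tert, in which Tert, the catalytic protein of telomerase, is expressed from the promoter of Cdkn1a (p21) on 1 allele. The mice of TCi-HCC981 and TCi-HCA984 were p21+/TertCi, which carry a catalytically inactive Tert in the same place, and the endogenous Tert gene was intact in both genotypes. The transgene is therefore on in any cell that uses the p21 promoter, and the livers used as the reference carried it too. No wild-type liver was analysed here.

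In these names HCC is hepatocellular carcinoma and HCA hepatocellular adenoma. By the drivers that exome sequencing gave in the study, which the sample labels do not state, T-HCC662 and T-HCC663 were Ctnnb1-mutated (active beta-catenin), T-HCC941 carried an Egfr and TCi-HCC981 an Hras mutation, and T-HCA992 and TCi-HCA984 had neither. T-HCC663 keeps its name from the text of the study, although its histology is listed there as an adenoma. Each class thus held 2 tumors, both Ctnnb1-mutated tumors came from p21+/Tert mice, and each other class held 1 tumor of each genotype.

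An imprinted gene is transcribed from a single parental copy, because DNA methylation laid down in the egg or the sperm keeps the other copy silent. Many imprinted genes set fetal growth: in fetal liver the neighbors H19, a maternally expressed long noncoding RNA, and Igf2, a paternally expressed growth factor, are made in large amounts from shared enhancers and fall after birth. The Dlk1-Meg3 domain is built alike, with paternally expressed Dlk1 beside the maternally expressed noncoding RNAs Meg3, Rian and Mirg, which host small RNAs. The read counts do not separate the parental copies.

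Levels are given as CPM, the reads of a gene per 1000000 reads of the library after scaling of the libraries by edgeR's TMM method. Libraries held between 14571716 and 26170661 assigned reads, so that 3 reads, the limit that a count of 0 allows, stood for 0.108 to 0.230 CPM. This limit and the intervals below cover counting error only. Values run in the order of the mice of T-HCC662, T-HCC663 and T-HCC941, then T-HCA992, then TCi-HCC981 and TCi-HCA984, unless tumors are named, for livers and tumors alike. Markers of the labelled tissue were present: summed hepatocyte markers (Alb, Ttr, Apoa1, Cps1, Serpinc1 and Hnf4a) lay at 27176 to 51123 CPM in the livers and 15726 to 92927 CPM in the tumors, and none of the 6 was at 0 in any library. Among the tumors the Ctnnb1-mutated ones had the lowest sums, 32411 and 15726 CPM. In bulk tissue, fewer cells of a type and less RNA per cell cannot be told apart.

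H19 lies at chr7:142575529-142578143 (minus strand, mm10) and Igf2 at chr7:142650766-142666816 on the same strand. An exon of H19 encloses Mir675, the precursor of the 2 miRNAs below, which are known to restrain placental growth. Meg3, Rian and Mirg lie head to tail on the plus strand at chr12:109541001-109571726, chr12:109603940-109661716 and chr12:109729764-109749460, behind Dlk1 at chr12:109452823-109463336. Mir1906-1 is in an exon of Meg3 and Mir410 in an exon of Mirg, and they had the most reads of the 10 miRNA precursors followed here in this domain. The mature sequences are from RefSeq (GRCm38.p6), with the seed, bases 2 to 8, in capitals. The 22 mature miRNAs of the 12 precursors listed for these loci had 22 different seeds.
miR-675-5p: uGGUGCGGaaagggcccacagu
miR-675-3p: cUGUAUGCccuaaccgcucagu
miR-1906: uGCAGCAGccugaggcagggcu
miR-410-5p: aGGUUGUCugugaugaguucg
miR-410-3p: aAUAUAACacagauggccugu

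H19 was higher in every tumor than in every liver. Its livers read 0.641, 0.955, 0.230, 0.106, 0.084 and 0.295 CPM, or 2 to 15 reads a library. The tumors read 59.7, 4.16, 2059, 17.3, 1318 and 7.80 CPM, or 96 to 38455 reads. The groups did not overlap, a pattern that 2.86% of the 13822 genes tested showed in this direction. The Egfr- and Hras-mutated carcinomas T-HCC941 and TCi-HCC981 stood far above the other 4 tumors, and T-HCC663 was the lowest. Against its own liver, H19 was 8935-fold higher in T-HCC941 (95% counting interval 3057 to 43330) and 15611-fold higher in TCi-HCC981 (4321 to 128911), on livers with 3 and 2 reads. The ratio was 163 in T-HCA992 (44.8 to 1347), 93.2 in T-HCC662 (48.9 to 204), 26.5 in TCi-HCA984 (11.8 to 73.4) and 4.36 in T-HCC663 (2.51 to 8.09).

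Igf2, which encodes the fetal insulin-like growth factor, rose beside H19 but not in step with it. It read 0.570, 0.573, 0.691, 1.12, 0.295 and 0.197 CPM in the livers and 4.50, 0.997, 682, 20.95, 22.3 and 1.09 CPM in the tumors. Each tumor lay above its own liver and 4 lay above every liver, while T-HCC663 and TCi-HCA984 lay within the range of the livers. The ratio to the own liver was 986 in T-HCC941 (519 to 2158), 75.5 in TCi-HCC981 (36.3 to 189) and 18.8 in T-HCA992 (12.2 to 30.6). It was 7.89 in T-HCC662 (3.86 to 18.8) and 5.54 in TCi-HCA984 (1.84 to 22.4), and in T-HCC663 it was 1.74 with an interval that included 1 (0.775 to 4.27). T-HCC941 and TCi-HCC981, alike in H19, differed in Igf2: 33.1 Igf2 reads were counted per 100 H19 reads in T-HCC941 and 1.69 in TCi-HCC981. In T-HCA992 the same figure was 121 and in T-HCC662 it was 7.53. Igf2 overlaps the antisense gene Igf2os over 98 exon bases.

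**Figure D1:**
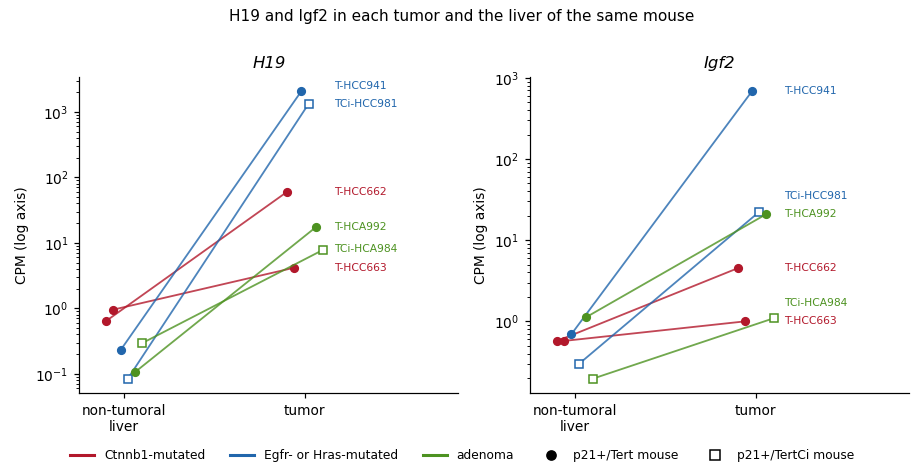
CPM of H19 (left) and Igf2 (right) on log axes; each line joins the non-tumoral liver and the tumor of a mouse, color gives the driver class and symbol the genotype. H19 lies between 0.084 and 0.955 CPM in the 6 livers and between 4.16 and 2059 CPM in the 6 tumors, and Igf2 in T-HCC663 and TCi-HCA984 stays within the range of the livers.

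Across all 6 tumors and 6 livers, edgeR called H19 (log2 fold change 10.58, SE 1.88, adjusted p = 0.00437) and Igf2 (7.74, SE 1.74, adjusted p = 0.0138). These were 2 of the 8 genes that passed the filter on low counts, both higher, where 10.7% of all genes were called and 6.77% were called higher. The other 6 were not called: Meg3 (3.04), Rian (2.64), Peg3 (1.17), Plagl1 (0.86), Igf2r (0.50) and Cdkn1c (0.13), with adjusted p from 0.261 to 0.942. Dlk1 and Mirg did not pass the filter in this comparison, and H19 and Igf2, the genes called, passed it through their tumors. The median log2 fold change was 1.90 over the 8 and 0.01 over all genes, and since high tumors dominate a fold change of group means, these values say little about a typical tumor. With the mouse as a block, which weighs each tumor against its own liver, H19 (7.68, adjusted p = 0.0272) and Igf2 (4.72, adjusted p = 0.0310) were again called. Without T-HCC941 the fold change of Igf2 was 4.12 (log2), and both were still called. Of the 6 endothelial markers, Pecam1 was called higher in the tumors as well (1.59, SE 0.38, adjusted p = 0.0179), at 3.61 to 14.3 CPM in the livers and 13.2 to 43.6 CPM in the tumors. The summed endothelial markers overlapped, at 53.8 to 164 CPM and 50.2 to 256 CPM, and their part in these results was not tested.

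In the 4 p21+/Tert mice alone, H19 (10.09, SE 2.42, adjusted p = 0.0334) and Igf2 (7.86, SE 2.01, adjusted p = 0.0420) were the 2 of 10 that were called, both higher. All genes were called at 6.49%, and at 4.2% in that direction. With the mouse as a block, which called 8.61% of all genes, neither was (H19 6.90, adjusted p = 0.0934, and Igf2 4.61, adjusted p = 0.0999). Both calls were also lost without T-HCC941 and without any single one of the 4 livers. The other 8 were not called there: Mirg (3.28), Meg3 (3.10), Rian (2.67), Peg3 (2.04), Igf2r (0.57), Plagl1 (0.20), Dlk1 (0.16) and Cdkn1c (-0.96), with adjusted p from 0.276 to 0.965. In the 2 p21+/TertCi mice edgeR called 0 of the 10 and 0% of all genes, although 1618 genes had an unadjusted p under 0.05 and DESeq2 called 375. H19 had a log2 fold change of 11.74 there (SE 3.67, adjusted p = 0.336) and Igf2 of 5.51 (SE 2.75, adjusted p = 0.505). The rest lay between -1.30 for Peg3 and 1.46 for Plagl1: Mirg -0.72, Dlk1 -0.16, Meg3 -0.065, Igf2r 0.31, Cdkn1c 0.61 and Rian 0.80. The difference between the genotypes, tested as an interaction, called 0 of the 10 and 0% of all genes by edgeR, with 556 genes at an unadjusted p under 0.05 and 10 called by DESeq2. For H19 that difference was 1.65 (SE 3.42, adjusted p = 1.00), an interval too wide to tell whether the genotypes differed. As p21+/TertCi minus p21+/Tert, the others were Cdkn1c 1.58, Plagl1 1.26, Igf2r -0.26, Dlk1 -0.32, Rian -1.88, Igf2 -2.35, Meg3 -3.16, Peg3 -3.34 and Mirg -4.01, each with an adjusted p of 1.00.

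By driver class, H19 averaged 1688 ± 524 CPM (SD, n = 2) in the Egfr- and Hras-mutated carcinomas, 32.0 ± 39.3 in the Ctnnb1-mutated tumors and 12.5 ± 6.70 in the adenomas. The last pair overlapped, and the first lay apart from both. Igf2 averaged 352 ± 466, 2.75 ± 2.47 and 11.0 ± 14.04 CPM in the same order, with overlap between the Ctnnb1-mutated tumors and the adenomas. Egfr- and Hras-mutated carcinomas against adenomas gave a log2 difference of 7.06 for H19 (SE 1.26, adjusted p = 0.176) and 4.98 for Igf2 (SE 1.49, adjusted p = 0.467). It was 3.26 for Rian, 2.70 for Peg3, 1.79 for Meg3, 0.11 for Plagl1, -0.24 for Igf2r, -0.44 for Cdkn1c, -0.73 for Mirg and -4.07 for Dlk1 (adjusted p from 0.620 to 0.986). edgeR called 0 of the 10 and 0% of all genes in that contrast of 2 tumors with 2, where 1331 genes had an unadjusted p under 0.05. DESeq2 called 105 genes, H19 among them (adjusted p = 2.56e-05). The Ctnnb1-mutated tumors were below the other 4 by 4.50 for Igf2 (log2 difference -4.50, SE 1.42, adjusted p = 0.0591) and by 2.17 for H19 (-2.17, SE 0.94, adjusted p = 0.144), and neither passed in edgeR. DESeq2 called Igf2 (-4.50, adjusted p = 0.00546).

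Reads on the Mir675 row, which come from the H19 host transcript in a poly(A) library and do not measure the mature miRNA, followed H19 in most tumors. The row held 0 or 1 read in the 6 livers and 181, 11, 4791, 40, 997 and 0 reads in the tumors. Per 100 H19 reads these were 13.5, 11.46, 12.5 and 8.33 in the 4 p21+/Tert tumors, 3.89 in TCi-HCC981 and 0 of 136 in TCi-HCA984. In the p21+/Tert mice the row was called higher in the tumors (adjusted p = 0.0483 in edgeR), a call lost without T-HCC941 or any single liver. How reads shared by both rows were assigned is not given in the sources used here.

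Igf2r encodes the receptor that takes IGF2 up for breakdown and so lowers its level. It had the narrowest range of the 10 genes over the libraries as a ratio of highest to lowest: 45.3, 47.1, 38.4, 48.0, 30.3 and 61.6 CPM in the livers and 117, 75.2, 29.0, 45.5, 58.3 and 56.9 CPM in the tumors. The Ctnnb1-mutated tumors were the 2 above every liver, and T-HCC941, with the most Igf2, was the 1 below. The ratio to the own liver was 2.59 in T-HCC662 (2.37 to 2.83), 1.92 in TCi-HCC981 (1.75 to 2.11) and 1.596 in T-HCC663 (1.46 to 1.74). T-HCC941 was 1.33-fold lower than its liver, and the intervals of the adenomas included 1. Ctnnb1-mutated against other tumors, Igf2r was higher by 1.04 (SE 0.31, adjusted p = 0.0514), just short of the threshold in edgeR, and DESeq2 called it (adjusted p = 0.0260).

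The noncoding RNAs of the Dlk1-Meg3 domain split the tumors in another way. Meg3, a maternally expressed RNA with growth-suppressing activity in cultured cells, read 56.9, 74.1, 17.5, 8.18, 1.52 and 7.32 CPM in the livers. Its tumors read 109, 1238, 1.87, 0.684, 6.68 and 1.83 CPM. The Ctnnb1-mutated tumors lay above every liver, T-HCA992 lay below every liver, and the tumors spanned a 1811-fold range. Against the own liver Meg3 was 16.7-fold higher in T-HCC663 (15.8 to 17.7), 4.40-fold higher in TCi-HCC981 (3.02 to 6.55) and 1.91-fold higher in T-HCC662 (1.77 to 2.08). It was 12.0-fold lower in T-HCA992, 9.35-fold lower in T-HCC941 and 3.99-fold lower in TCi-HCA984.

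Rian, which hosts small nucleolar RNAs and miRNAs, read 13.2, 20.1, 4.92, 1.54, 0.211 and 1.77 CPM in the livers and 27.6, 226, 0.803, 0.180, 3.19 and 0.229 CPM in the tumors. It moved the same way as Meg3 in all 6 mice, 11.3-fold higher than its liver in T-HCC663, 2.09-fold in T-HCC662 and 15.1-fold in TCi-HCC981, and 6.12- to 8.56-fold lower in the other 3. Mirg, a host of a miRNA cluster, read 1.42, 1.46, 1.31, 0.106, 0.084 and 0.197 CPM in the livers and 2.63, 39.4, 0, 0, 0.051 and 0.115 CPM in the tumors. It was 26.9-fold higher than its liver in T-HCC663 (17.8 to 42.6), 1.84-fold higher in T-HCC662 (1.09 to 3.23) and at least 8.13-fold lower in T-HCC941 (0 reads, set at the limit of 3 reads). In the other 3 mice both libraries had 4 reads or fewer. Within the domain the reads kept a narrower ratio than the levels: 18.3 Rian reads per 100 Meg3 reads in T-HCC663, 25.3 in T-HCC662 and 47.7 in TCi-HCC981, against 13.9 to 28.1 in the livers. In T-HCC941, T-HCA992 and TCi-HCA984 the figure was 42.9, 26.3 and 12.5, on 15, 5 and 4 Rian reads.

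Beside these, T-HCC663 had 3188 reads on Mir1906-1, 99 on Mir410, 48 on Mir412, 30 on Mir770 and 15 on Mir409. Mir1906-1 gave 11.2 reads per 100 Meg3 reads in T-HCC663, 11.7 in T-HCC662 and 14.4 and 15.4 in their livers, in that order, and its row was equal to that of its copy Mir1906-2, on the X chromosome, in 12 of 12 libraries. Those reads cannot be placed on either copy. Dlk1, the paternally expressed surface protein of the domain and a marker of fetal liver progenitors, did not move with its neighbors: it was at 0 to 0.214 CPM in 5 livers and 0 to 0.360 CPM in 5 tumors. The mouse of TCi-HCA984 was apart, with 8.01 CPM in the liver (163 reads) and 6.94 CPM in the tumor (121 reads), a ratio of 0.866 (0.679 to 1.10).

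Ctnnb1-mutated against the other 4 tumors, edgeR called 4 of the 10, where 12.5% of all genes were called. Meg3 (8.199, SE 1.46, adjusted p = 0.00649), Rian (7.63, SE 1.45, adjusted p = 0.00861) and Mirg (8.98, SE 1.52, adjusted p = 0.00510) were higher, as were 6.76% of all genes. Peg3 was lower (log2 difference -7.87, SE 2.13, adjusted p = 0.0346), as were 5.73% of all genes. Dlk1 (-4.12, adjusted p = 0.364), Cdkn1c (-3.02, adjusted p = 0.174) and Plagl1 (-2.55, adjusted p = 0.176) were not called. Neighboring transcripts of 1 domain are not 3 separate results. Without T-HCC663, Meg3 and Mirg kept their calls, at 5.59 and 5.98, and Rian (adjusted p = 0.0540) and Peg3 did not. Peg3 was also lost without T-HCC662, T-HCA992 or TCi-HCA984. An edgeR fit of only the libraries compared did not call Peg3 either (log2 difference -7.86, adjusted p = 0.0842).

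For Meg3, Rian, Mirg and Peg3, livers of mice with Ctnnb1-mutated tumors differed from the other livers in the direction of their tumors. Meg3 averaged 65.5 ± 12.2 CPM in these 2 livers and 8.63 ± 6.62 in the other 4 (SD), and the groups did not overlap. Rian averaged 16.6 ± 4.87 against 2.11 ± 1.99, Mirg 1.44 ± 0.03 against 0.423 ± 0.590, and Peg3 3.78 ± 1.202 against 19.4 ± 10.9 CPM, again without overlap. The margins were narrow for Mirg, at 20 and 23 reads against at most 17, and for Peg3, at most 4.63 against at least 4.99 CPM. H19 was also higher in these 2 livers (0.798 ± 0.222 CPM) than in the other 4 (0.179 ± 0.100), on 9 and 15 reads against 2 to 6. The tumors of these mice went the other way, averaging 32.0 CPM of H19 against 850 CPM. The share of all genes that split the livers so was not counted. With the mouse as a block, so that each tumor is set against its own liver before the classes are compared, 0 of the 10 and 2.9% of all genes were called in edgeR. Meg3 then differed by 4.17 (adjusted p = 0.217), Rian by 3.69 (adjusted p = 0.243), Mirg by 5.70 (adjusted p = 0.147) and Peg3 by -4.66 (adjusted p = 0.316). H19 differed by -5.24 (adjusted p = 0.0913), more than without the block. The unadjusted p was under 0.05 for Meg3, Rian, Mirg, Plagl1, Cdkn1c, H19 and Igf2. The share of all genes with such a p was not counted in the blocked fit. Without the block, 7 of the 10 and 4587 of 15182 genes had an unadjusted p under 0.05 in edgeR. What set the livers of these mice apart was not tested.

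Cell type markers moved with this contrast. Of the 6 endothelial markers Kdr and Pecam1 were called lower in the Ctnnb1-mutated tumors, of the 7 stellate and fibroblast markers Des and Pdgfrb, of the 5 bile duct markers Sox9 and of the 6 hepatocyte markers Cps1 and Alb, while Alas2 of the 4 erythroid markers was higher. Summed endothelial markers were 50.2 and 94.8 CPM in the Ctnnb1-mutated tumors and 133 to 256 CPM in the other 4. Stellate and fibroblast markers were 28.7 and 55.6 CPM against 118 to 307 CPM, and bile duct markers 17.6 and 35.1 CPM against 60.8 to 1069 CPM, with Krt19 and Krt7 at 0 in TCi-HCC981. The bile duct markers did not move as a set. Beside Sox9 (log2 difference -3.49), Spp1 (-4.00), Epcam (-0.96) and Krt7 (-0.30) were lower without a call. Krt19 went the other way (1.54), also without a call. Macrophage markers, 60.0 and 397 CPM against 83.5 to 528 CPM, and the 6 lymphocyte markers, 19.6 and 37.0 CPM against 14.5 to 84.4 CPM, overlapped. In the fit with the mouse as a block Kdr, Sox9 and Cps1 were still called and the rest were not. The part of these cells in the levels of Meg3, Rian, Mirg and Peg3 was not tested.

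**Figure D2:**
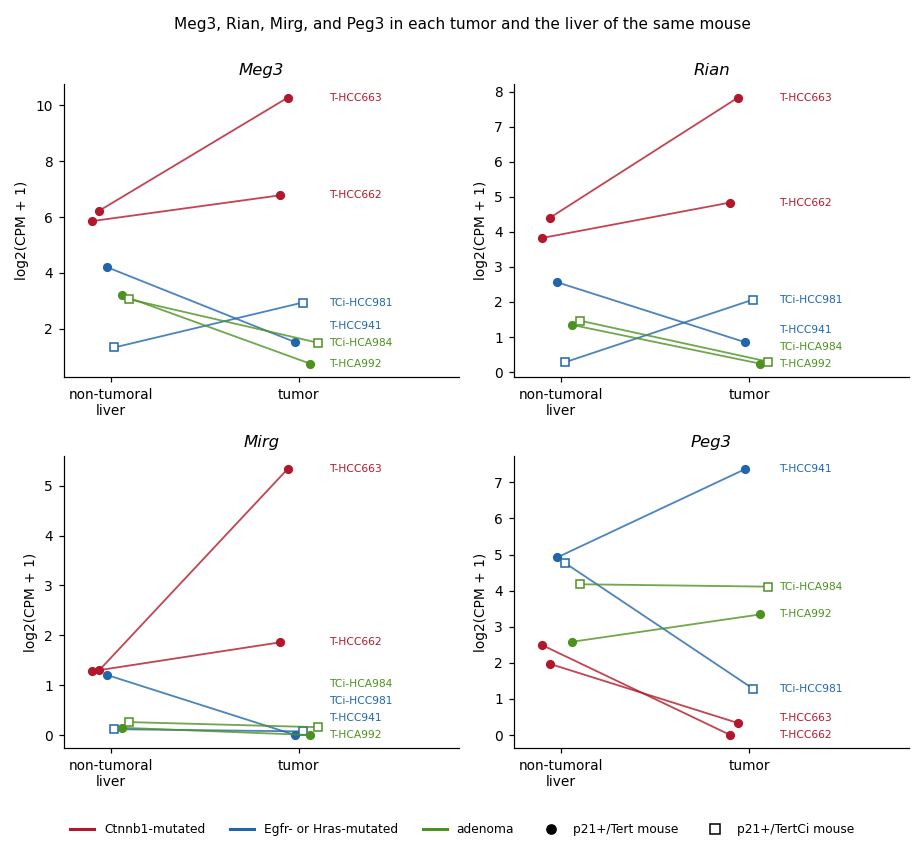
log2(CPM + 1) of Meg3, Rian, Mirg and Peg3; each line joins the non-tumoral liver and the tumor of a mouse, color gives the driver class and symbol the genotype. The livers of the mice with Ctnnb1-mutated tumors start highest for Meg3, Rian and Mirg and lowest for Peg3, and their tumors lie farther out in the same direction.

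Peg3, a paternally expressed zinc finger protein with growth-suppressing activity, read 4.63, 2.93, 29.3, 4.99, 26.4 and 17.1 CPM in the livers and 0, 0.260, 165, 9.14, 1.44 and 16.3 CPM in the tumors. T-HCC941 lay above every liver, and T-HCC662, T-HCC663 and TCi-HCC981 lay below every liver. Peg3 was at least 34.7-fold lower than the own liver in T-HCC662, with 0 reads against 65, 11.3-fold lower in T-HCC663 and 18.3-fold lower in TCi-HCC981. It was 5.62-fold higher in T-HCC941 (5.05 to 6.27) and 1.83-fold higher in T-HCA992 (1.44 to 2.34), and close to its liver in TCi-HCA984 (0.952, interval 0.811 to 1.12). The Egfr- and the Hras-mutated carcinoma moved in opposite directions from their livers, and their mean was 83.0 ± 115 CPM.

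Promoters of 8 of the 10 genes were in the RefSeq table (GRCm38.p6), 12 windows of 250 bases before a transcript start. Of these, 1 of Meg3 and that of Peg3 are shown, because both hold the cyclic AMP response element (CRE) TGACGTCA. Both genes were also called between the driver classes, in opposite directions, in the fit without the mouse as a block. With the block edgeR called neither (adjusted p = 0.217 and 0.316), and a part of the motif in these levels was not tested. The search covered both strands, and 1.55% of 32851 promoter windows held this motif. In Meg3 the motif lay 57 to 50 bases before the start, and a TATA box (TATAAA, in 12.4% of windows) lay 25 to 20 bases before it, overlapping a further match on the other strand. In Peg3 the CRE lay 178 to 171 bases before the start. CRE and TATA box matches are in capitals, and a match of letters is not a binding site.
Meg3 promoter, chr12:109540746-109540995, plus strand: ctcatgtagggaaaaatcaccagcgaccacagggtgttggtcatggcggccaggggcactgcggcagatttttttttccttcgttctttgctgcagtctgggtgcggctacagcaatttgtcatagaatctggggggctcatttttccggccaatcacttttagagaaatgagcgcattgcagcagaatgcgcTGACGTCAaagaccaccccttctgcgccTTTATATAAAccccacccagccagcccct
Peg3 promoter, chr7:6730420-6730669, minus strand: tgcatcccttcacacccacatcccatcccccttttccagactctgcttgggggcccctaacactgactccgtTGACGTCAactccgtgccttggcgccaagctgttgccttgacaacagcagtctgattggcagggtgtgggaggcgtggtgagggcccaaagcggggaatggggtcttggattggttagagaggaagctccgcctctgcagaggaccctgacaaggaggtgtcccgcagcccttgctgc

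Plagl1, at chr10:13060504-13131694, encodes a paternally expressed zinc finger protein that regulates other imprinted genes. It stayed low, at 0.570, 0.892, 0, 1.17, 1.31 and 0.639 CPM in the livers and 0.089, 0.564, 0.535, 1.87, 3.55 and 1.89 CPM in the tumors. The adenomas and TCi-HCC981 lay above every liver, and the rest overlapped. Plagl1 was 2.96-fold higher than its liver in TCi-HCA984 (1.52 to 6.13), 2.71-fold higher in TCi-HCC981 (1.75 to 4.29) and 6.40-fold lower in T-HCC662, on 2 reads (ratio 0.156, interval 0.016 to 0.783).

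Cdkn1c, at chr7:143458339-143461050, encodes the maternally expressed cyclin-dependent kinase inhibitor p57, a brake on the cell cycle. It read 1.71, 1.97, 0.307, 2.23, 7.47 and 1.23 CPM in the livers and 0.846, 0.087, 0.375, 1.87, 6.27 and 7.11 CPM in the tumors. T-HCC663 lay below every liver and the other tumors were within the livers' range. Against the own liver it was 22.8-fold lower in T-HCC663 (2 reads against 31), 2.02-fold lower in T-HCC662 and 5.79-fold higher in TCi-HCA984 (3.74 to 9.29), and the other 3 intervals included 1. The liver with the most Cdkn1c, that of the mouse of TCi-HCC981, also had the most macrophage marker reads (837 CPM over Clec4f, Adgre1, Csf1r, Cd68 and Vsig4, against 85.1 to 181 CPM in the other livers), as its tumor had among tumors (528 CPM), and none of the 5 was at 0. That liver also had the highest sums of lymphocyte (64.2 CPM), bile duct (135 CPM) and proliferation (22.4 CPM) markers among the livers. The tumor with the most Cdkn1c, TCi-HCA984, had 83.5 CPM of macrophage markers, and only T-HCC662 had less among the tumors. The part of these cells in the Cdkn1c level was not tested.

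**Figure D3:**
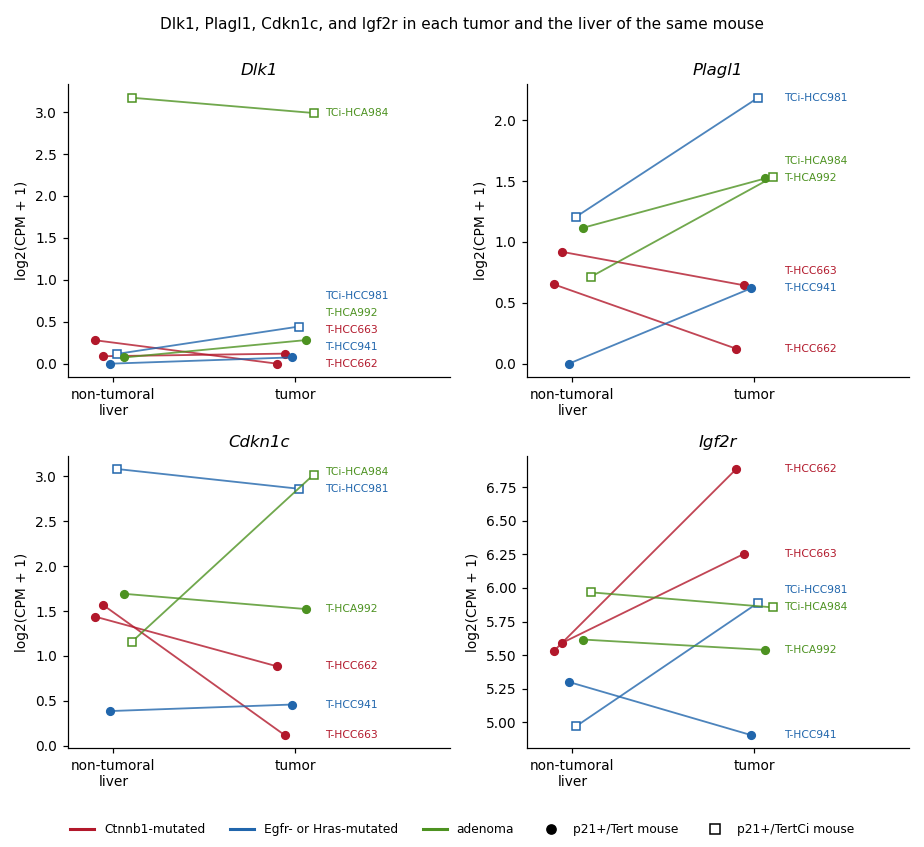
log2(CPM + 1) of Dlk1, Plagl1, Cdkn1c and Igf2r; each line joins the non-tumoral liver and the tumor of a mouse, color gives the driver class and symbol the genotype. Dlk1 is near 0 except in both libraries of the mouse of TCi-HCA984, and Igf2r is highest in the Ctnnb1-mutated tumors, at 117 and 75.2 CPM.

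Of 60 pairs of a gene and a tumor, 55 had a ratio to the own liver, and 18 of these were over 2-fold higher and 11 over 2-fold lower by the whole counting interval. Over all genes and tumors the same shares were 9.31% and 6.04% of 94749 pairs. These ratios compare single libraries and have no replicate check. The 18 included H19 in all 6 tumors and Igf2 in 4. T-HCC662 and T-HCC663 shared higher Meg3, Rian, Mirg and Igf2r with lower Peg3 and Cdkn1c, and T-HCC941 had the reverse for Meg3, Rian, Mirg, Igf2r and Peg3. TCi-HCC981 joined high H19 with raised Meg3 and Rian and lowered Peg3. Its own liver was the lowest of the 6 for Meg3 and Rian, and against the mean of the 6 livers both were lower in TCi-HCC981 (log2 ratio -2.05 and -1.12).

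**Figure D4:**
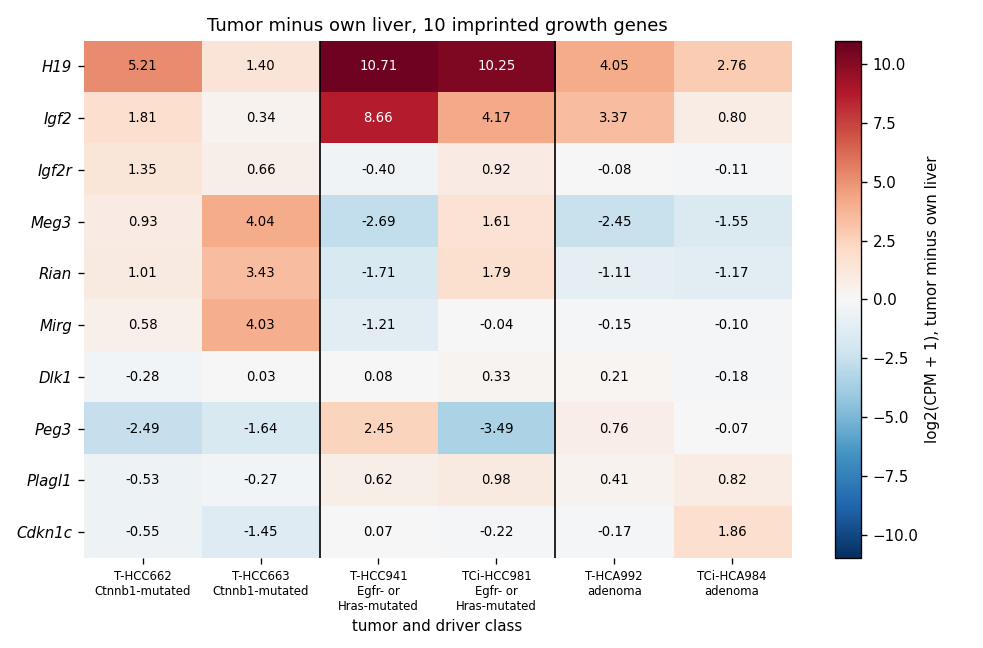
Difference in log2(CPM + 1) between each tumor and its own liver for the 10 genes, with tumors in columns grouped by driver class, red for higher in the tumor and blue for lower. H19 and Igf2 are above 0 in all 6 columns, while Meg3, Rian, Mirg and Peg3 have both signs, with Meg3 from -2.69 in T-HCC941 to 4.04 in T-HCC663.

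Only per length can levels of different genes be compared. The length used was that of all annotated exons of a gene together, 2460 bases for H19, 5723 for Igf2 and 18089 for Meg3. The lengths of the transcripts expressed were not measured, and the order of genes depends on this choice. In CPM per kilobase of exon, H19 in T-HCC941 (837) was the highest value of any member, followed by H19 in TCi-HCC981, Igf2 in T-HCC941 (119) and Meg3 in T-HCC663 (68.5). Rian and Mirg reached 12.4 and 5.398 in T-HCC663, and Peg3 reached 12.4 in T-HCC941. In the livers the highest median was that of Igf2r (4.96), with medians of 0.107 for H19, 0.100 for Igf2 and 0.7102 for Meg3.

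**Figure D5:**
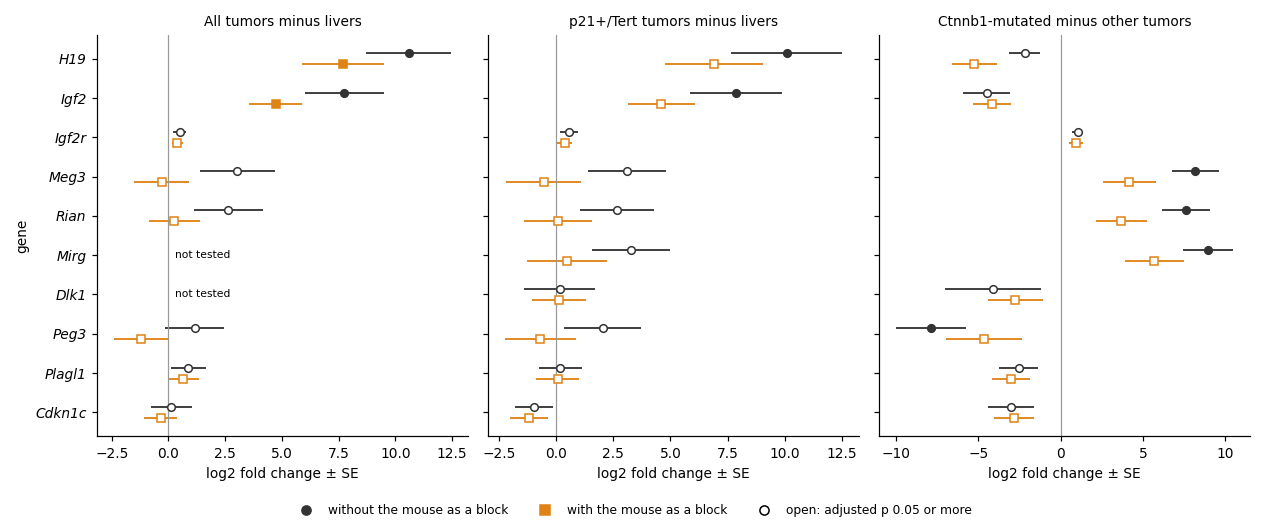
log2 fold changes with their SE for 3 comparisons, without the mouse as a block (black circles) and with it (orange squares), filled where the edgeR adjusted p is under 0.05. H19 and Igf2 are filled in both fits over all tumors, and in the comparison of the driver classes Meg3, Rian, Mirg and Peg3 are filled without the block and open with it.

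Over the 12 libraries, described by Pearson's r of log2(CPM + 1) with livers and tumors pooled, H19 and Igf2 had an r of 0.887. The genes nearest to H19 were Prkcdbp (0.971), Tekt5 (0.965) and Mst1r (0.954), and those nearest to Igf2 were Arl8a (0.932), Lrrc8e (0.927) and Prkcdbp (0.926). Rian (0.992) and the Mir1906 rows (0.991) were nearest to Meg3. Peg3 was nearest to its antisense Peg3os (0.989), whose reads cannot be told apart from those of Peg3 unless counting used strand, and then to Mageh1 (0.814). Igf2r was nearest to Arl4a (0.954), Plagl1 to Abca9 (0.943) and Cdkn1c to Zfp36l1 (0.903). The points share libraries and the contrast of tumor with liver.

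Most neighbors within 1 Mb of a member were not called in tumors against livers. Of all 13822 genes tested there, 936 (6.77%) were called higher and 541 lower. Around H19, Igf2 and Cdkn1c, 5 of 30 tested genes were higher in tumors and 0 lower (edgeR), with a median log2 fold change of 0.40 against 0.01 over all genes. Among them was Phlda2, a maternally expressed growth restrainer of the placenta (3.20, SE 0.64, adjusted p = 0.00760), at 0 to 0.922 CPM in the livers and 1.78 to 6.75 CPM in the tumors, with no overlap. The next largest differences there were those of Mrgpre (2.30, adjusted p = 0.0418) and Brsk2 (-1.70, adjusted p = 0.265). Around the Dlk1-Meg3 domain 1 of 16 was called higher, with the largest differences in Mir1906-1 (2.67), which lies within Meg3, Gm16596 (1.45) and Eml1 (1.09, the 1 called) and a median of 0.28. Around Peg3 1 of 10 was called lower, Vmn2r29 (-1.47), followed by Zfp773 (1.23) and Zfp444 (-0.49), with a median of -0.22. Around Plagl1 0 of 11 were called (Aig1 1.15, Stx11 0.96 and Fuca2 0.62, median 0.24). Around Igf2r 1 of 17 was called lower, with the largest differences in Mas1 (2.30), Airn (2.16) and Slc22a3 (1.65), none of them called, and a median of -0.014.

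Around Igf2r, 5 of 19 neighbors were higher in the Ctnnb1-mutated than in the other tumors and 0 were lower, with a median difference of 0.45 (log2). Over all genes 6.76% were higher, 5.73% were lower and the median was -0.0040. Of 34 neighbors of H19, Igf2 and Cdkn1c 1 was higher, Brsk2 (4.77), and 3 were lower, with Mrgpre (-3.68) and Gm16982 (-3.19) the farthest and a median of -0.39. Of 16 in the Dlk1-Meg3 domain 2 were higher (median 0.17): Mir1906-1 (10.42, adjusted p = 0.202 under the block by mouse), whose row lies in an exon of Meg3 and is no separate neighbor, and B930059L03Rik (2.27), while Eml1 (-0.999) was not called. Of 10 around Peg3 1 was higher, Zfp444 (0.96), and Zfp78 (0.75) and Zfp667 (-0.53) were not called (median 3.5e-05). Of 11 around Plagl1 3 were lower, among them Aig1 (-2.91) and Phactr2 (-1.83), and B230208H11Rik (0.97) was not called (median -0.11). Slc22a3, an organic cation transporter imprinted in the placenta, read 162 and 84.6 CPM in the Ctnnb1-mutated tumors and 0.411 to 7.23 CPM in the other 4 (log2 difference 5.86, SE 0.73, adjusted p = 0.000843). Beside it Mas1 was higher (5.11, adjusted p = 0.0189), and 2700054A10Rik (-4.45, adjusted p = 0.174) was not called. Airn, the paternally expressed antisense RNA that silences Igf2r on its own copy, read 15.4 and 12.1 CPM there and 0.589 to 2.06 CPM in the other tumors (3.33, SE 0.53, adjusted p = 0.00362). It was at 0.584 to 2.60 CPM in the livers. Airn overlaps Igf2r on the other strand without sharing an exon base.

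Of 19 further paternally expressed genes 11 were tested in all tumors against livers, and 1 was called: Impact, a regulator of translation (0.68, SE 0.20, adjusted p = 0.0421), at 19.7 to 27.8 CPM in the livers and 25.3 to 54.4 CPM in the tumors. Of 16 further maternally expressed genes 12 were tested and 3 called, where 10.7% of all genes were called in this comparison. Beside Phlda2 these were Grb10, an adapter that restrains insulin and IGF receptor signaling (2.45, adjusted p = 0.0339), and Ppp1r9a, a regulator of protein phosphatase 1, which was lower (log2 fold change -2.09, adjusted p = 0.0164). The study reported a frameshift mutation of Ppp1r9a in T-HCA992, and its part in this level was not tested. Grb10 was 30.3 and 42.2 CPM in TCi-HCC981 and TCi-HCA984, 8.57 and 8.60 in T-HCC941 and T-HCA992, and 2.63 and 3.38 in the Ctnnb1-mutated tumors, within the livers' 1.28 to 4.94 CPM. Against the other tumors the Ctnnb1-mutated ones were lower in Grb10 (-2.88, adjusted p = 0.0379) and Sgce (-4.29, adjusted p = 0.0124), a sarcoglycan gene, at 0.445 and 0.780 CPM against 1.28 to 21.4 CPM. Under the block by mouse Grb10 was called in neither comparison (adjusted p = 0.127 and 0.191) and Sgce was not (adjusted p = 0.150), while Phlda2, Impact and Ppp1r9a were. Impact was lost from the blocked fit without the mouse of T-HCC662 (adjusted p = 0.0705), and from the fit without the block when T-HCC662, T-HCC663, T-HCC941 or any liver but that of TCi-HCC981's mouse was left out.

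In the insulin-like growth factor axis, 15 of 20 genes were tested in all tumors against livers, with 2 higher and 2 lower. Over all genes 10.7% were called there. Igf1, the postnatal liver's growth factor, fell by 1.86 (log2 fold change -1.86, SE 0.30, adjusted p = 0.00274), from 539 to 951 CPM in the livers to 99.3 to 311 CPM in the tumors, without overlap. Igfals, which carries IGF1 in the blood, was lower too (-1.76, SE 0.37, adjusted p = 0.0104), at 117 to 181 CPM in the livers and 12.2 to 99.1 CPM in the tumors. The binding protein gene Igfbp3 (2.15, adjusted p = 0.0392) and Igf2bp3, whose protein binds Igf2 mRNA (2.01, adjusted p = 0.0193), were higher, and the block by mouse left Igf2bp3 called and Igfbp3 not (adjusted p = 0.159). Without the mouse of T-HCC662 the blocked fit no longer called Igf2bp3 (adjusted p = 0.0649). The receptor genes Igf1r and Insr were not called. Ctnnb1-mutated against other tumors, Irs1, an adapter of the insulin and IGF1 receptors, was higher (1.13, SE 0.19, adjusted p = 0.00430), at 62.1 and 58.4 CPM against 21.5 to 33.0 CPM, and so was Igfals (1.24, adjusted p = 0.0465). Neither was called under the block by mouse (adjusted p = 0.0510 and 0.126). In the p21+/Tert mice alone, Igfbp1, which binds both growth factors, was higher (5.22, adjusted p = 0.0108), and so were Impact (0.86, adjusted p = 0.0476) and Airn (3.17, adjusted p = 0.0487), whereas Igf1 was lower (-1.77, adjusted p = 0.0232), as was Calcr (-7.25, adjusted p = 0.0476), the calcitonin receptor gene, at 0 in all 4 of these tumors. Under the block by mouse Airn and Calcr were not called (adjusted p = 0.114 and 0.0629), and of these 5 genes Igfbp1 alone was called whichever library was left out.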

How the data were processed

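The authors deposited raw read counts per gene symbol for each library, made from poly(A) RNA sequenced as 150-bp paired-end reads: reads under Phred 30 were removed, the rest aligned with Subread to mm10 and counted with featureCounts 1.6.4. The annotation, the strand setting and the treatment of reads over more than 1 gene or alignment are not given in the sources used here, which bears on overlapping and antisense genes. The authors corrected for sequencing run. That correction was left out here, since no source gives the run of a library.

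The counts were tested with edgeR 4.0.16 (R 4.3.3; TMM, filterByExpr, quasi-likelihood F test) over all genes that passed the filter, at a Benjamini-Hochberg adjusted p under 0.05. SE is the log2 fold change over the root of F. Comparisons within a genotype or between driver classes used all 12 libraries for a shared spread. Ratios of single libraries have exact conditional binomial 95% intervals. Alternatives were DESeq2 1.42.0, with and, chosen after seeing the data, without its Cook's distance filter, RLE size factors, no filter on low counts, only the libraries compared, 1 library left out, the mouse as a block and another reference or scaling for ratios. The tests were tried on simulated data.

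The genes were chosen with earlier results of these data known, as were the other lists (imprinted genes, IGF axis, imprint maintenance, fetal liver genes, miRNA precursors, cell type markers). All 10 genes are given in every comparison, and from each list the called genes, up to 5 a direction by p. The 3 nearest genes by r were taken for each member tested, and of neighbors the counts, medians and 3 largest differences of each locus. Driver classes are from the study, groups from the labels.

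One liver, titled by another animal number, was taken as that of the mouse of T-HCC662, the only liver without a tumor of its number; its counts were a constant multiple of that animal's column in the study's table in 927 of 927 genes (tolerance 0.001). Same-mouse pairs deviated together from their group means (r 0.085 to 0.461 in 6 of 6 pairs, median 0.330) more than other pairs (median -0.074, n = 30). The ranges overlapped, as other pairs ran from -0.282 to 0.242. T-HCC663 went more with the livers of the mice of T-HCC941 (0.242) and T-HCC662 (0.132) than with its own (0.085). The 12 libraries are a tumor and a liver of each of 6 mice. Positions are from GENCODE vM21.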

Additional observations from a re-analysis of the deposited data

Results flagged for a closer look

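In 40 groups of 4 to 6 libraries tested, of which chance alone would flag about 1 in 20, a single library stood apart 4 times. The measure was the gap to the nearest library as a share of the group's range in log2(CPM + 1), set against Dixon's 95% critical value. For Dlk1 it was 0.912 in the 6 livers, where the mouse of TCi-HCA984 read 8.01 CPM against at most 0.214 CPM in the others, and 0.852 in the 6 tumors, where TCi-HCA984 read 6.94 CPM against at most 0.360 CPM. Both libraries came from 1 mouse. For Mirg it was 0.917 in the p21+/Tert livers, where that of T-HCA992 read 0.106 CPM and the other 3 read 1.31 to 1.46 CPM, on 2 reads against 17 to 23. In the 6 tumors it was 0.652 for Mirg, where T-HCC663 read 39.4 CPM against at most 2.63 CPM.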

How the results depend on the processing

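H19 and Igf2 kept both direction and call in all tumors against livers under RLE size factors, no filter on low counts, the mouse as a block, with and without the mouse of T-HCC662, and each library left out. DESeq2 gave 1 call there, H19, with no adjusted p for Igf2 under its Cook's distance filter, and called 2407 genes in all (2411 without that filter). In the p21+/Tert mice it called 0 of the 10, with no adjusted p for H19, Igf2 and Peg3, and 2109 genes (without the filter H19, Igf2 and 2127 genes), and a fit of only the libraries compared called 1, H19. In the p21+/TertCi mice DESeq2 called 375 genes (383 and 1 of the 10, H19, without its filter), RLE size factors 1 gene and no filter on low counts 2. DESeq2 called 10 genes for the difference between the genotypes with either filter. It called 6 of the 10 and 3111 (3115) genes in Ctnnb1-mutated against other tumors. In Egfr- or Hras-mutated carcinomas against adenomas it called 105 (107) genes with 1 of the 10, H19. With only the libraries compared, edgeR called 839 genes in Ctnnb1-mutated against other tumors, and Peg3 lost its call. Only the libraries compared is the design already used for the difference between the genotypes.

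Pairing by mouse (replicate block) called 0 of the 10 in the p21+/Tert mice and 0 of the 10 with 441 genes in Ctnnb1-mutated against other tumors, and changed no other call among the 10. Of the calls of other listed genes and Slc22a3, it kept 13 of 17 in all tumors, 10 of 14 in the p21+/Tert mice and 6 of 18 in Ctnnb1-mutated against other tumors. With each library left out in turn, 11 (not Aurkb, Grb10, Igfbp3, Impact, Top2a and Uhrf1), 1 (Igfbp1) and 5 (Airn, Irs1, Mir1906-1, Slc22a3 and Sox9) of these were called every time. Other neighbors were not refitted. The block turned the direction of values that were not called: Meg3 (-0.29), Peg3 (-1.22) and Cdkn1c (-0.35) in all tumors, and Meg3 (-0.78), Rian (-0.043), Peg3 (-0.51) and Cdkn1c (-0.18) without the mouse of T-HCC662. It did so for Meg3 (-0.54) and Peg3 (-0.68) in the p21+/Tert mice, Dlk1 (0.57) and Meg3 (0.066) in the p21+/TertCi mice, and Dlk1 (1.77), Peg3 (-0.96) and Igf2r (0.36) between carcinomas and adenomas. For the difference between the genotypes it did so for Igf2 (0.41), Dlk1 (0.45), Meg3 (0.61), Rian (0.53) and Igf2r (0.023). Against the mean of the 6 livers 22 pairs of gene and tumor were over 2-fold lower, and the log2 ratio turned for Meg3 (-2.05) and Rian (-1.12) in TCi-HCC981, Peg3 in T-HCA992 (-0.64) and Plagl1 in T-HCC941 (-0.51). The cause was not tested.

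With 1 library left out, the calls were 863 to 1988 genes in all tumors against livers, 0 to 2 of the 10 in the p21+/Tert mice, 240 to 1192 genes in the p21+/Tert mice, 0 to 7 genes in the p21+/TertCi mice, 2 to 6 of the 10 in Ctnnb1-mutated against other tumors, 437 to 1653 genes in Ctnnb1-mutated against other tumors and 0 to 5 genes in Egfr- or Hras-mutated carcinomas against adenomas. The log2 values that lost or gained a call or turned were as follows. In all tumors against livers, Meg3 -0.17 to 3.63, Rian -0.084 to 3.34, Peg3 -1.39 to 1.499 and Cdkn1c -0.41 to 0.87. In the p21+/Tert mice, H19 5.80 to 10.68, Igf2 3.55 to 8.30, Dlk1 -0.74 to 1.05, Meg3 -0.062 to 3.61, Rian -0.045 to 3.28, Mirg -0.27 to 3.70, Peg3 -1.73 to 3.35 and Plagl1 -0.76 to 0.64. In the p21+/TertCi mice, Dlk1 -3.50 to 5.33, Meg3 -1.27 to 1.47, Rian -2.06 to 2.98, Cdkn1c -0.17 to 2.42 and Igf2r -0.12 to 0.92. For the difference between the genotypes, H19 -4.74 to 5.94, Igf2 -5.75 to 1.96, Dlk1 -3.65 to 5.18, Meg3 -4.36 to 0.038, Rian -4.73 to 0.87, Peg3 -5.97 to 0.43 and Igf2r -0.69 to 0.35. In Ctnnb1-mutated against other tumors, H19 -5.13 to -1.26, Igf2 -5.96 to -2.50, Rian 5.44 to 8.46, Peg3 -12.28 to -4.96 and Igf2r 0.67 to 1.34. In Egfr- or Hras-mutated carcinomas against adenomas, Mirg -3.07 to 2.35, Peg3 -3.15 to 3.68, Plagl1 -1.82 to 0.90, Cdkn1c -3.57 to 0.82 and Igf2r -0.84 to 0.17. Groups of 2 left 1 library, which was then assumed to vary like the others. Gene counts moved by over 1.5 times in all tumors without T-HCC941 (942) or the liver of the mouse of T-HCC662 (863). In the p21+/Tert mice they did so without T-HCC941 (587) or the livers of the mice of T-HCC662 (240), T-HCC663 (347) or T-HCC941 (424). They also did in Ctnnb1-mutated against other tumors without T-HCC662, T-HCC663, T-HCA992 or TCi-HCC981, each of which left 1 library in its class. At this depth Dlk1 was at or under 3 reads in 8 of the 12 libraries and Mirg in 6, where a difference between them was not detectable.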

Other observations

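Fetal liver genes outside the imprinted set were among those higher in the tumors. Of 4 fetal liver targets and repressors, Afp, the fetal serum protein, was higher than in the livers (log2 fold change 4.06, SE 0.74, adjusted p = 0.00472 in edgeR), at 2.46 to 6.98 CPM in the livers and 11.8 to 233 CPM in the tumors, without overlap. Gpc3, a cell surface proteoglycan of fetal liver (7.18, SE 1.66, adjusted p = 0.0162), read 391 and 247 CPM in TCi-HCC981 and TCi-HCA984, 10.9 and 18.1 CPM in T-HCC941 and T-HCA992, and 0.045 and 0.520 CPM in the Ctnnb1-mutated tumors, against 0.295 to 1.59 CPM in the livers. The Ctnnb1-mutated tumors were lower than the other tumors in both (Afp -3.09, adjusted p = 0.0210, and Gpc3 -9.13, adjusted p = 0.0129). Blocked by mouse, Afp was still called in all tumors and Gpc3 was not (adjusted p = 0.0559), and neither was called between the driver classes (adjusted p = 0.206 and 0.199). That contrast was also lost for both without T-HCC662 and without T-HCC663. In the p21+/Tert mice alone Afp was called (4.53, adjusted p = 0.0199), but not in the blocked fit (adjusted p = 0.0796). Their repressors Zhx2 and Zbtb20 were not called in the comparison of tumors with livers.

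Of 13 genes that keep or read imprints 11 were tested, and 2 were called, where 10.7% of all genes were called. Zfp57, which protects methylation at imprinted loci in the embryo, was higher in tumors (3.86, SE 0.68, adjusted p = 0.00431), at 0.154 to 1.71 CPM in the livers, 1.69 and 3.60 CPM in the Ctnnb1-mutated tumors and 15.9 to 27.4 CPM in the other 4, and it differed between these classes (-2.95, adjusted p = 0.0163). Uhrf1, which brings DNA methyltransferase to replicating DNA, was higher too (2.78, SE 0.72, adjusted p = 0.0282), at 0.071 to 2.45 CPM in the livers and 0.459 to 12.5 CPM in the tumors. Blocked by mouse, Zfp57 was called in both comparisons and Uhrf1 was not (adjusted p = 0.0562). Zfp57 lost the call between the driver classes without T-HCC662 (adjusted p = 0.126), and Uhrf1 its call without T-HCA992 or any of 4 single livers. In the p21+/Tert mice alone Zfp57 (3.36, adjusted p = 0.0396) and Uhrf1 (3.68, adjusted p = 0.0286) were called, Zfp57 not in the blocked fit (adjusted p = 0.153), and Afp, Zfp57 and Uhrf1 each lost that call without any one of the 4 livers. Of the 6 proliferation markers Mki67, Top2a, Cdk1 and Aurkb were called higher in all tumors, also with the mouse as a block, and in the p21+/Tert mice alone these and Ccnb1 were. The sum of the 6 was 41.0 to 117 CPM in 5 tumors, 5.68 CPM in TCi-HCA984, the tumor with the least Uhrf1, and 1.08 to 22.4 CPM in the livers.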
